A study of Mus musculus with 21 samples.

Results

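The 10 genes described here are 6 genes of antigen presentation by major histocompatibility complex (MHC) class II, which are H2-Aa, H2-Ab1, H2-Eb1, H2-DMb1, Cd74 and Ciita, and 4 genes linked to dendritic cells, which are Siglech, Itgax, Tcf4 and Irf4. They were chosen by name, and every probe set annotated to one of them alone was used, 22 of the 45101 probe sets on the array. Each gene was represented by its probe set of highest mean log2 intensity over all 21 arrays. In this way 9 of the 10 genes were measured among 18194 genes in all. H2-DMb1, a subunit of the chaperone that loads peptides onto class II molecules, had only 2 probe sets shared with its neighbour H2-DMb2, and no value is given for it.

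Expression was measured on arrays of bone marrow cells sorted from C57/BL6 mice. Granulocyte-macrophage progenitors (GMP) filled 4 arrays for mice of the genotype Dot1l fl/fl x Mx-Cre and 5 arrays for controls of the genotype Dot1 wt/wt x Mx-Cre. LSK cells carry Sca-1 and Kit but no lineage markers, include the blood stem cells, and filled 6 arrays for each genotype. All groups carried Mx-Cre and were injected with pIpC, which induces an interferon response and through it the Cre recombinase, so that Dot1l, which encodes a methyltransferase of histone H3, was deleted in the floxed mice. The Mx promoter is not limited to blood cells, and the controls share the Cre and the injection. Whether arrays of a group stand for separate animals is not in the labels, and p-values therefore reflect the spread among these samples alone, which may be technical. In such bulk samples fewer cells of a type and less RNA per cell cannot be told apart.

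Class II molecules are pairs of an alpha and a beta chain that show peptides from outside the cell to helper T cells. The invariant chain, encoded by Cd74, blocks their groove during assembly, and the coactivator encoded by Ciita switches the genes on through proteins bound to short promoter boxes. Dendritic cells and B cells carry much class II. Plasmacytoid dendritic cells, which make interferon, carry the surface lectin encoded by Siglech and depend on the transcription factor encoded by Tcf4. Itgax encodes the integrin CD11c of conventional dendritic cells, and Irf4 a transcription factor of a subset of them and of lymphocytes.

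The marker genes of the sort differed between the cell types only in part. Fcgr3, an Fc gamma receptor gene that marks GMP, was higher in GMP, with a log2 fold change of 2.38 (limma adjusted p 0.0363) among Dot1l-deleted cells and 2.86 (limma adjusted p 0.000382) among controls. Among controls, Flt3, a cytokine receptor gene of early progenitors, was lower in GMP at -5.07, and so was Kit at -2.63. Cd34, Fcgr2b, Il7r and Slamf1 did not pass the test there. Cd34 averaged 8.30 in control GMP and 10.22 in control LSK, and Il7r 2.92 and 4.14. Fcgr2b averaged 7.62 and 6.06, and Slamf1 3.97 and 3.70. Ly6a, which encodes Sca-1, had no probe set of its own. The 2 probe sets of Dot1l overlapped between genotypes in both cell types, with log2 fold changes of -0.54 and -0.52 in GMP and -0.19 and -0.10 in LSK. It is not known here whether these probe sets lie in the deleted part of the gene, and they do not check the deletion. Array K1272 of Dot1l-deleted LSK was unlike its group, since its Spearman correlation with the other 5 averaged 0.684 where other arrays had between 0.811 and 0.943 with theirs, and it was the highest of the 12 LSK arrays for 43.5% of all genes.

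Promoters of class II genes hold an X box, bound by the RFX complex, and a Y box, bound by NF-Y, on which the Ciita protein acts. The 150 bases before the start of 3 genes are shown because these genes were all lower in control GMP than in control LSK and because each holds both boxes, written in capitals as GCAAC and ATTGG. Sequences are from RefSeq, build GRCm38.p6, 5′ to 3′ on the strand of the gene. H2-Aa lies on the minus strand at chr17:34287824-34287973, H2-Eb1 on the plus strand at chr17:34305717-34305866 and H2-Ob, a beta chain gene of the same pathway, on the plus strand at chr17:34238755-34238904.
H2-Aa: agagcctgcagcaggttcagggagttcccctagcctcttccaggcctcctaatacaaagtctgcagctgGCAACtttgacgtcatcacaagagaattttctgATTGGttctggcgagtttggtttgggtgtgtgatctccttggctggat
H2-Eb1: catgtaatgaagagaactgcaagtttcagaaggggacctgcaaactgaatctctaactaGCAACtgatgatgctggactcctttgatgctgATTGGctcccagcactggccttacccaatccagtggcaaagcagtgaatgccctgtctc
H2-Ob: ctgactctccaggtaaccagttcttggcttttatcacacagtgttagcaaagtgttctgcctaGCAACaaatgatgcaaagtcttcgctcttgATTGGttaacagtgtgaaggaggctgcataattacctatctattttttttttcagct
GCAAC began 81 bases before the start in H2-Aa, 91 in H2-Eb1 and 87 in H2-Ob, and ATTGG began 33, 32 and 30 bases further on. Over 32851 promoter windows of this length, searched on both strands, GCAAC was in 19.6% and ATTGG in 24.5%. GCAAC followed 28 to 35 bases on by ATTGG on 1 strand was in 0.213%, or 70 windows, a spacing that was chosen after these promoters were read. A match to these letters is a description and not a binding site. The genes were chosen for both the lower level and the boxes, so a link between these was not tested. The window of H2-DMb1, on the plus strand at chr17:34153041-34153190, held ATTGG 61 bases before the start and no GCAAC. Promoter entries were found for 6 of the 10 genes, and none for H2-Ab1, Cd74, Ciita and Tcf4.

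In control mice the class II chain genes H2-Aa and H2-Eb1 and the invariant chain gene Cd74 were lower in GMP than in LSK cells. They passed the test with log2 fold changes of -1.97, -1.90 and -2.99, and no GMP array reached the lowest LSK array for any of them. Thus 3 of the 9 measured genes were called, all lower in GMP, where 12% of all 18194 genes were called in either direction and 4.95% as lower in GMP. The same 3 of 9 had groups that did not overlap, against 14.7% of all genes. The median log2 fold change of the 9 genes was -1.11 and that of all genes 0.29.

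H2-Aa, the alpha chain of the mouse class II molecule I-A, had log2 levels of 8.51, 8.0, 6.96, 7.26 and 7.39 on the 5 control GMP arrays, against a lowest of 8.73, a median of 9.74 and a highest of 10.26 on the 6 control LSK arrays. The gap between the highest GMP array and the lowest LSK array was smaller than the range within either group. The log2 fold change was -1.97 ± 0.41 (SE; limma adjusted p 0.00498), and an exact two-sided permutation test gave p = 0.00216, the smallest that 5 arrays against 6 allow. H2-Eb1, the beta chain of the molecule I-E, had 6.17, 5.08, 6.23, 4.63 and 5.52 in control GMP, against 6.83, 7.41 and 8.21 in control LSK (lowest, median and highest). Mice of the C57/BL6 strain are known to lack I-E on the cell surface because their alpha chain gene H2-Ea is not expressed. Every control GMP array lay under every control LSK array for H2-Eb1, at -1.90 ± 0.47 (SE; limma adjusted p 0.0148).

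Cd74 showed the widest gap of the 4 genes. It had 5.03, 6.28, 5.43, 6.75 and 6.07 in control GMP, against 7.97, 8.94 and 9.77 in control LSK, with a log2 fold change of -2.99 ± 0.58 (SE; limma adjusted p 0.00332). The highest GMP array was more than 1 unit under the lowest LSK array. H2-Ab1, the beta chain that pairs with H2-Aa, had 8.54, 9.62, 10.09, 9.44 and 8.60 in control GMP, against 9.36, 10.56 and 11.11 in control LSK. Its groups overlapped, with 3 GMP arrays above the lowest LSK array, and its log2 fold change of -1.11 ± 0.51 (SE) missed the threshold (limma adjusted p 0.132). It passed, at an adjusted p of 0.0489, when the Dot1l-deleted LSK arrays K1272 and K1422 were left out of the shared estimate of spread. That choice was made after seeing the data, and 28.6% of all genes were called under it. H2-Ab1 was called in 2 of 34 limma alternatives.

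**Figure D1:**
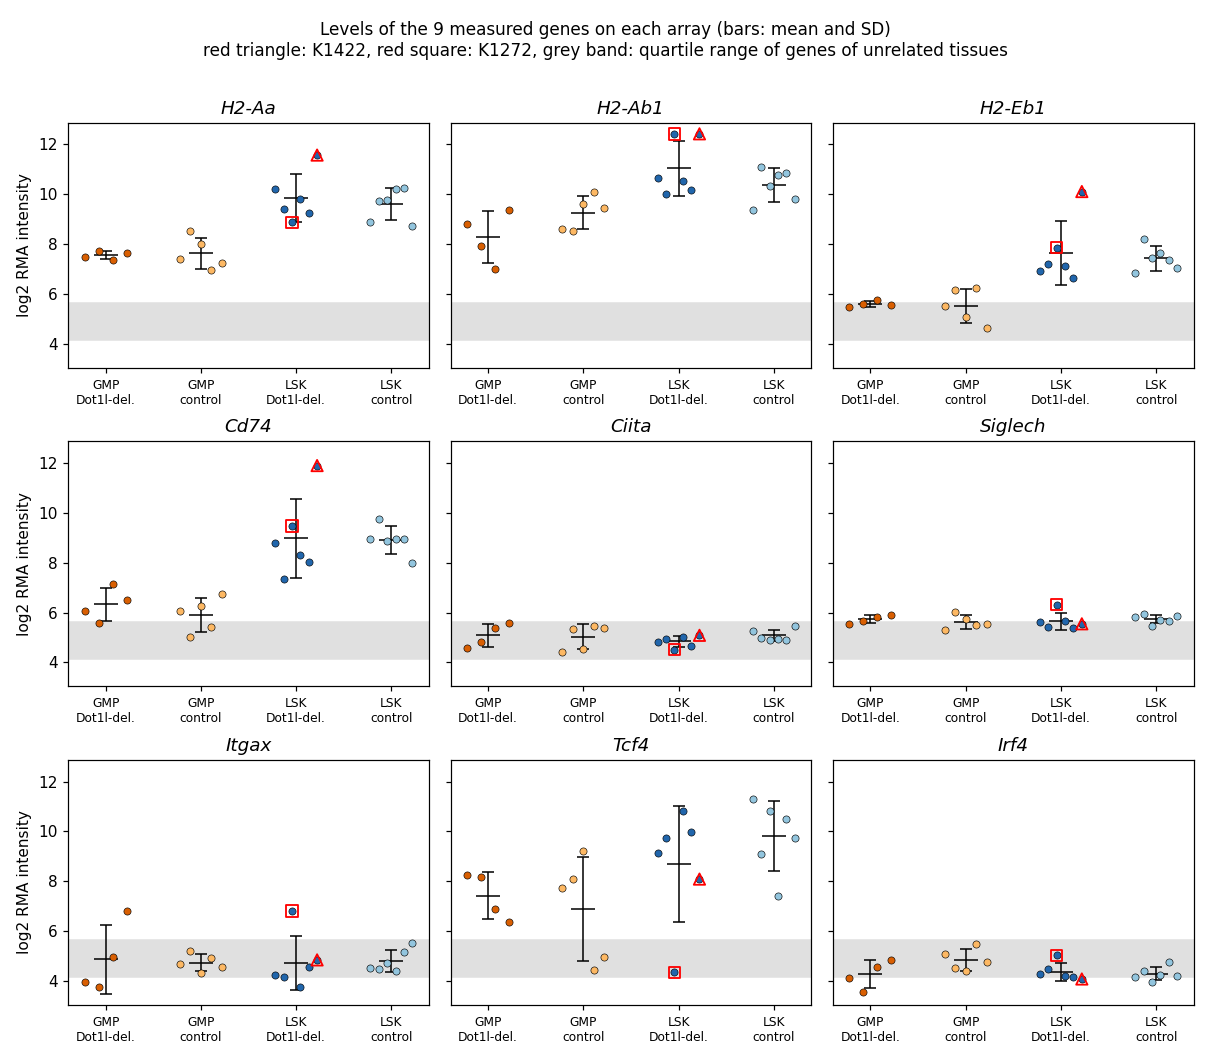
Log2 RMA intensity (y axis) of the 9 measured genes on each of the 21 arrays, by group (x axis), with bars for the mean and SD, and a grey band between the lower and upper quartile of the levels of 17 genes of unrelated tissues. The GMP arrays lie under the LSK arrays for H2-Aa, H2-Eb1 and Cd74, and the array K1422 (red triangle) is the highest LSK array for the 4 class II genes. The band holds Ciita on 21 arrays, Itgax on 16, Irf4 on 15 and Siglech on 9, with Siglech above it on the other 12. It also holds H2-Eb1 on 6 arrays, Cd74 on 3 and Tcf4 on 3.

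In Dot1l-deleted mice the same 4 genes had lower levels in GMP, and for each of them every GMP array lay under every LSK array. H2-Aa and H2-Ab1 passed the test at -2.31 and -2.76, and H2-Eb1 and Cd74 had -2.03 and -2.65 without passing it. Here 2 of 9 genes were called, both lower in GMP, against 0.143% of all genes in either direction and 0.0934% as lower in GMP. Groups did not overlap for 4 of 9 genes, against 2.03% of all genes. The median over the 9 genes was -1.28 and over all genes 0.01.

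H2-Aa had 7.47, 7.73, 7.37 and 7.63 on the 4 Dot1l-deleted GMP arrays, against a lowest of 8.88, a median of 9.61 and a highest of 11.57 on the 6 Dot1l-deleted LSK arrays, a log2 fold change of -2.31 ± 0.44 (SE; limma adjusted p 0.0363). The GMP arrays lay close together, while the LSK arrays spanned more than 2 units. H2-Ab1 had 8.82, 7.92, 7.01 and 9.38 in Dot1l-deleted GMP, against 10.01, 10.59 and 12.43 in Dot1l-deleted LSK, at -2.76 ± 0.54 (SE; limma adjusted p 0.0420). The exact two-sided permutation p was 0.00476 for both genes, the smallest that 4 arrays against 6 allow. Without the Dot1l-deleted LSK array K1422 neither gene was called, with log2 fold changes of -1.96 and -2.48 and limma adjusted p of 0.0582 and 0.103. Without K1272 both were called, at 0.0128 and 0.0371.

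H2-Eb1 had 5.48, 5.60, 5.76 and 5.57 in Dot1l-deleted GMP, against 6.65, 7.15 and 10.11 in Dot1l-deleted LSK, with -2.03 ± 0.50 (SE; limma adjusted p 0.118, exact permutation p = 0.00952). Cd74 had 6.06, 5.58, 7.15 and 6.50 in Dot1l-deleted GMP, against 7.35, 8.55 and 11.90 in Dot1l-deleted LSK, with -2.65 ± 0.62 (SE; limma adjusted p 0.102, exact permutation p = 0.0143). Neither gene overlapped between the groups, and for Cd74 the gap was narrow, with 7.15 on the highest GMP array and 7.35 on the lowest LSK array. Averaged over the 4 genes, the level ran from 6.71 to 7.27 over the Dot1l-deleted GMP arrays, from 6.90 to 7.25 over control GMP, from 8.49 to 11.50 over Dot1l-deleted LSK and from 8.39 to 9.71 over control LSK. Every GMP array thus lay under every LSK array, and the genotypes overlapped within each cell type.

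**Figure D2:**
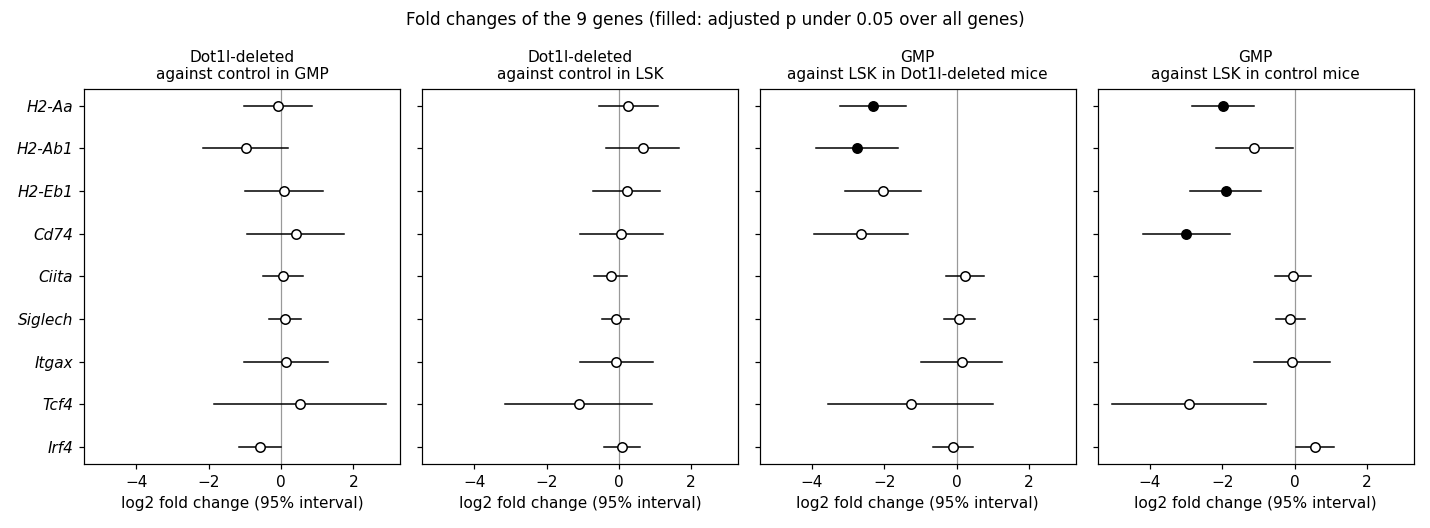
Log2 fold changes (x axis, with 95% intervals from the limma fit) of the 9 genes (rows) in 4 comparisons, with filled points for an adjusted p under 0.05 over all genes. The filled points are H2-Aa and H2-Ab1 for GMP against LSK in Dot1l-deleted mice and H2-Aa, H2-Eb1 and Cd74 for GMP against LSK in control mice, all below 0.

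By this test, with each gene at its brightest probe set, none of the 9 genes was called for deletion of Dot1l in either cell type. In GMP 0 of 9 were called, with 0 at an unadjusted p under 0.05, against 0.143% of all genes called. In LSK 0 of 9 were called, again with 0 at an unadjusted p under 0.05, against 0% of all genes, of which 1021 had an unadjusted p under 0.05. The groups of deleted and control arrays overlapped for all 9 genes, where 4.78% of all genes did not overlap in GMP and 0.33% in LSK. The effect in GMP did not differ from that in LSK for any of the 9, against 0.033% of all genes, and 1 of them, H2-Ab1, had an unadjusted p under 0.05.

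Among the class II genes the intervals of the deletion effect were wide. In GMP the log2 fold change of H2-Aa was -0.07 with a 95% interval from -1.02 to 0.87, that of H2-Eb1 was 0.08 (-1.01 to 1.16) and that of Cd74 was 0.41 (-0.93 to 1.75). H2-Ab1 was -0.98 in GMP (-2.15 to 0.20, limma adjusted p 0.416) and 0.66 in LSK (-0.35 to 1.67, limma adjusted p 0.985), and the difference of these effects, GMP minus LSK, was -1.64 ± 0.74 (SE; limma adjusted p 0.352). The H2-Ab1 levels of the deleted groups leaned to opposite sides of their controls, on overlapping arrays. Its other probe sets, 1451721_a_at and 1425477_x_at, had larger effects in LSK, at 1.59 ± 0.63 and 1.06 ± 0.41 (SE). Their limma adjusted p over all probe sets was 0.759 and 0.755, and in GMP they had -0.63 and -0.56, all on overlapping arrays. In LSK the log2 fold change was 0.26 (-0.55 to 1.07) for H2-Aa, 0.22 (-0.72 to 1.15) for H2-Eb1 and 0.07 (-1.08 to 1.22) for Cd74. The upper bounds of all 4 genes in LSK lay above 1 on the log2 scale, so that an increase of that size lay within the intervals.

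Part of the spread among the Dot1l-deleted LSK arrays came with 1 array. The Dot1l-deleted LSK array K1422 was the highest of all 12 LSK arrays for H2-Aa, H2-Ab1, H2-Eb1 and Cd74, that is for 4 of the 9 genes. It was the highest for 6.22% of all genes. The array was picked out from these same values of the members, so the count of 4 is a description and no test. K1422 had 11.57 for H2-Aa, where the highest other LSK array had 10.26. It had 10.11 for H2-Eb1, where the next had 8.21, and 11.90 for Cd74, where the next had 9.77. For H2-Ab1 its 12.43 was matched by 12.42 on K1272, and the highest control LSK array had 11.11. Without K1422 the log2 fold change in LSK was -0.08 for H2-Aa, -0.28 for H2-Eb1, -0.52 for Cd74 and 0.38 for H2-Ab1, each with a limma adjusted p of at least 0.962.

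Other genes of antigen-presenting cells were also highest on K1422 among the LSK arrays. It was the highest for 3 of 17 genes of the class II pathway, including Ifi30, a thiol reductase gene of antigen processing, at 10.46 where the next array had 9.68, and Ctss, which encodes the protease cathepsin S. It was the highest for 4 of 18 conventional dendritic markers, among them Naaa at 6.94 where the next had 5.49 and the RNA sensor gene Tlr3 at 6.52 where the next had 5.40. Of 17 dendritic transcription factors it was the highest for 5, including Id2, Zbtb46 and Relb. Its mean over the conventional dendritic markers was 6.26, where the other Dot1l-deleted LSK arrays had at most 5.86 and control LSK arrays at most 5.75. The markers Xcr1 and Itgax were instead highest on K1272, at 4.57 and 6.80, where K1422 had 4.05 and 4.84. It was the highest array for 1 of 13 B cell markers, 0 of 12 macrophage markers and 0 of 17 genes of unrelated tissues. The part of these cells or genes in the class II levels was not tested.

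**Figure D3:**
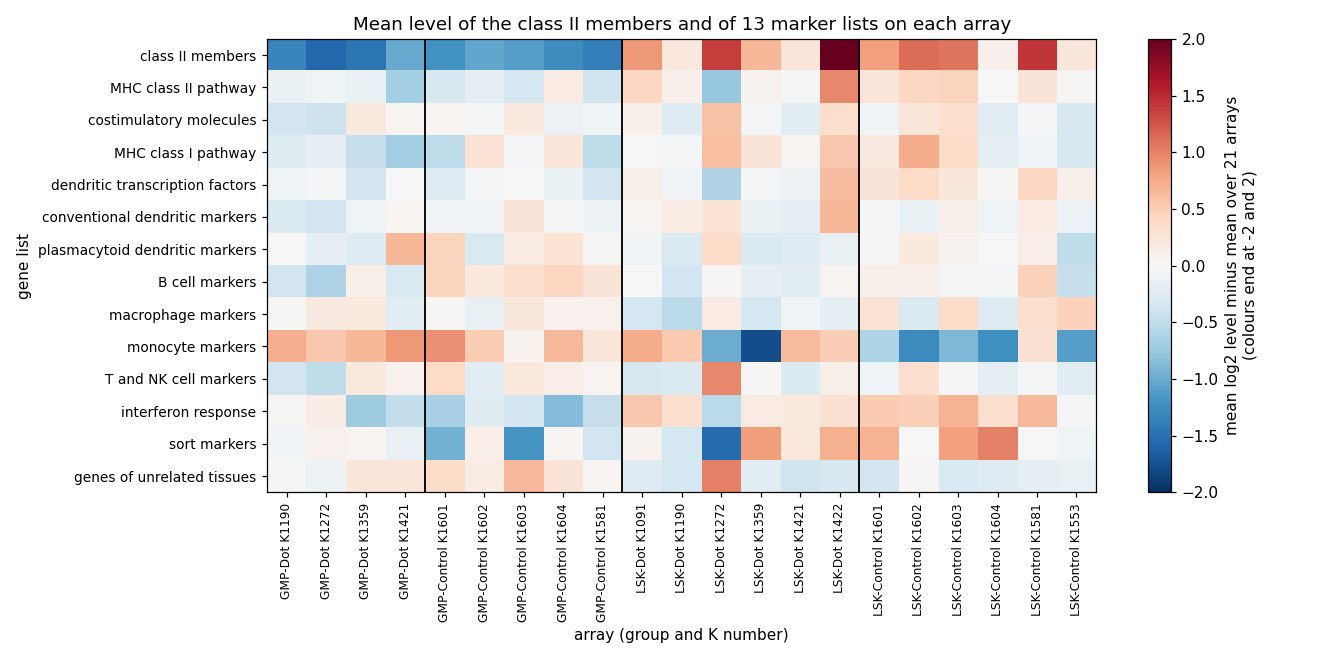
Mean log2 level of the 4 class II genes (top row, H2-Aa, H2-Ab1, H2-Eb1 and Cd74) and of 13 gene lists (rows) on each of the 21 arrays (columns, by group), as the difference from the mean of that row over all arrays, with colours ending at -2 and 2. The top row is low on all 9 GMP arrays, and the array K1422 of Dot1l-deleted LSK has the highest conventional dendritic markers, at a mean of 6.26.

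Ciita, the coactivator gene, showed no called difference in any comparison. It had 4.59, 4.81, 5.39 and 5.57 in Dot1l-deleted GMP and 5.35, 4.53, 5.46, 5.39 and 4.43 in control GMP. In LSK it had a lowest of 4.51, a median of 4.89 and a highest of 5.08 after deletion, against 4.89, 4.97 and 5.47 in controls. All groups overlapped, and the log2 fold change of GMP against LSK was 0.24 (-0.28 to 0.76) in Dot1l-deleted mice and -0.04 (-0.53 to 0.45) in controls. A second probe set of Ciita, 1421211_a_at, gave 7.18 on the Dot1l-deleted LSK array K1422, against a mean of 4.16 ± 0.17 (SD, n = 6) in control LSK, and is given after its values were seen.

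Siglech, the lectin gene of plasmacytoid dendritic cells, was at like levels in all groups. It had 5.55, 5.65, 5.81 and 5.91 in Dot1l-deleted GMP, against 6.04, 5.75, 5.48, 5.52 and 5.30 in control GMP. In LSK the lowest, median and highest were 5.39, 5.58 and 6.32 after deletion, against 5.47, 5.76 and 5.93 in controls. Its effect of deletion was 0.11 in GMP (-0.33 to 0.55) and -0.08 in LSK (-0.46 to 0.29), the narrowest intervals of the 9 genes. The highest value was on the Dot1l-deleted LSK array K1272, on which genes of unrelated tissues were also highest, with a mean of 5.93 where the other LSK arrays had between 4.52 and 4.94.

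Itgax had 3.97, 3.75, 4.95 and 6.79 in Dot1l-deleted GMP, against 5.20, 4.32, 4.91, 4.57 and 4.67 in control GMP. In LSK it had 3.77, 4.41 and 6.80 after deletion, against 4.41, 4.61 and 5.50 in controls. A single deleted array was well above its group in each cell type, K1421 in GMP and K1272 in LSK, and all groups overlapped. Irf4 had 4.11, 3.54, 4.57 and 4.83 in Dot1l-deleted GMP, against 4.51, 4.40, 5.48, 4.75 and 5.09 in control GMP, with a log2 fold change of -0.59 (-1.17 to 0.0014, limma adjusted p 0.359). Irf4 in LSK had 4.08, 4.24 and 5.02 after deletion, against 3.97, 4.22 and 4.75 in controls, an effect of 0.08 (-0.42 to 0.59). Among controls Irf4 was 0.57 (0.04 to 1.09) for GMP against LSK, which missed the threshold (limma adjusted p 0.127), where all genes had a median of 0.29.

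Ciita, Siglech, Itgax and Irf4 were at levels that genes of other organs also gave. The 17 measured genes of unrelated tissues, such as the liver albumin gene, had a lower quartile of 4.15, a median of 4.91, an upper quartile of 5.63 and a 95th percentile of 7.23 over all arrays. Probe sets differ in brightness, so this is not a call of presence, and a change in a gene at such a level could be hidden. The same limit holds for H2-Eb1 in GMP, which averaged 5.60 in Dot1l-deleted and 5.53 in control GMP. H2-Eb1 lay between these quartiles on 6 of 21 arrays, Cd74 on 3 and Tcf4 on 3. The genes of unrelated tissues also moved between groups. They were higher in control GMP than in control LSK for 17 of 17, with a median of 0.49 and 0 called, 7 having an unadjusted p under 0.05. They were lower in Dot1l-deleted GMP than in control GMP for 15 of 17, with a median of -0.41 and 0 called, 2 having an unadjusted p under 0.05. The part of such a shift in the values of the dim genes was not tested.

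Tcf4 was the member with the widest spread between arrays. Its brightest probe set had 8.24, 8.18, 6.88 and 6.35 in Dot1l-deleted GMP, against 8.09, 9.21, 4.44, 4.96 and 7.74 in control GMP. In LSK it had 4.34, 9.44 and 10.83 after deletion, against 7.41, 10.11 and 11.28 in controls, and the lowest value was on K1272. GMP against LSK was -1.28 ± 1.09 (SE; limma adjusted p 0.9997) in Dot1l-deleted mice and -2.92 ± 1.02 (SE; limma adjusted p 0.0658) in controls. The effect of deletion was 0.53 in GMP (-1.84 to 2.89) and -1.11 in LSK (-3.15 to 0.92). All of these groups overlapped. Without K1272 the effect of deletion in LSK was -0.24, and without K1272 and K1422 it was 0.12. Without K1272, GMP against LSK was -2.14 in Dot1l-deleted mice (limma adjusted p 0.406). The control difference of -2.92 then passed the threshold (limma adjusted p 0.015). This control difference was called in 9 of 35 limma alternatives. It shrank to -0.68 (limma adjusted p 0.762) when the arrays' upper quartile was a covariate. With the K number as a replicate block it was -2.62 (limma adjusted p 0.252).

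Of the 5 other probe sets of Tcf4, 3 separated control GMP from control LSK without overlap. At their brightest probe sets 14.7% of all genes did so, and the share over all probe sets was not counted. Probe sets are given one by one after their values were seen. The probe set 1434149_at had 6.46, 6.80, 5.88 and 5.51 in Dot1l-deleted GMP, against 4.21, 3.54, 4.17, 5.25 and 3.64 in control GMP. In LSK it had 5.54, 6.71 and 7.97 after deletion, against 7.05, 7.68 and 8.19 in controls. Control GMP thus lay under every other group on this probe set, without overlap. Its log2 fold change for GMP against LSK was -0.61 ± 0.40 (SE; limma adjusted p 0.918 over all probe sets) in Dot1l-deleted mice and -3.52 ± 0.37 (SE; limma adjusted p 3.52e-05) in controls. Deletion in GMP gave 2.0 ± 0.41 (SE; limma adjusted p 0.0604) and the difference of the deletion effects was 2.91 ± 0.54 (SE; limma adjusted p 0.0613), both just short of the threshold over 34958 probe sets. The probe set 1434148_at also had no overlap between Dot1l-deleted and control GMP, at 1.07 ± 0.41 (SE; limma adjusted p 0.278). At their brightest probe sets 4.78% of all genes had no overlap there, and Tcf4 itself overlapped. The other 4 probe sets overlapped there, with log2 fold changes of -0.19, 0.31, 0.53 and 1.03. For deletion in LSK 1434149_at had -0.91 ± 0.36 (SE; limma adjusted p 0.759 over all probe sets), with overlapping groups. The remaining ones beside the brightest had -0.98, -0.74, -0.72 and 0.09 there, also with overlap.

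Over all 22 probe sets of the 9 genes, 3 were called for GMP against LSK in Dot1l-deleted mice, where 33 of all 34958 single-gene probe sets were, and 8 in control mice, where 3606 were. No probe set of these genes was called for deletion or for the difference of effects. The 3 in Dot1l-deleted mice were all of 1 gene, H2-Aa. The 8 in controls were 3 of 4 probe sets of H2-Aa, the single ones of H2-Eb1 and Cd74, and 3 of 6 of Tcf4. All of these were lower in GMP. The H2-Aa probe set 1435290_x_at had -4.26 ± 0.68 (SE) in Dot1l-deleted mice and -3.78 ± 0.64 (SE) in controls, larger than the chosen one. Probe sets of H2-Ab1 disagreed in controls, where the chosen one had -1.11 and the others -0.04 and 0.17. These others were dim, averaging 5.62 and 5.13 in control GMP and 5.66 and 4.96 in control LSK. The chosen one averaged 9.26 and 10.37. Genes of unrelated tissues had an upper quartile of 5.63, and a change at such a level could be hidden. In Dot1l-deleted mice all 3 probe sets of H2-Ab1 were negative, at -2.76, -2.27 and -1.45, and none passed over all probe sets.

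**Figure D4:**
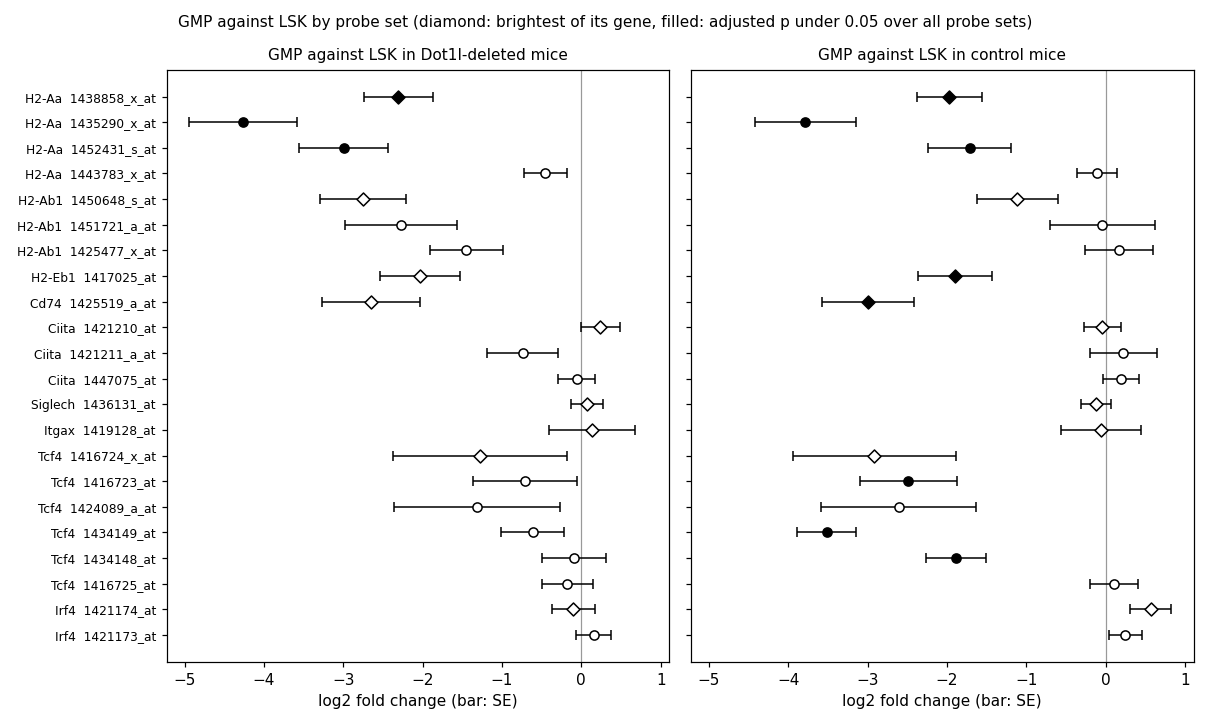
Log2 fold change (x axis, bars for the SE) of GMP against LSK for each of the 22 probe sets (rows), in Dot1l-deleted mice (left) and control mice (right), with diamonds for the brightest probe set of a gene and filled symbols for an adjusted p under 0.05 over 34958 probe sets. The Tcf4 probe set 1434149_at is at -0.61 in Dot1l-deleted mice and -3.52 in controls, and the probe sets of H2-Ab1 differ from each other in controls.

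Of 18 further genes of the class II pathway 17 were measured, and 1 of them was called. H2-Ob, a beta chain of the chaperone that restrains peptide loading, averaged 3.97 ± 0.90 in control GMP (SD, n = 5) and 8.79 ± 0.57 in control LSK (n = 6), a log2 fold change of -4.82 ± 0.69 (SE; limma adjusted p 0.000302). In Dot1l-deleted cells it averaged 3.14 ± 0.31 in GMP (SD, n = 4) and 6.56 ± 2.02 in LSK (n = 6), a log2 fold change of -3.43 ± 0.74 (SE; limma adjusted p 0.0760). The chaperone subunit gene H2-DMa had 1.53 and the RFX subunit gene Rfx5 had -1.52 for GMP against LSK in controls, with limma adjusted p of 0.0845 and 0.0735. The pathway list as a whole had 8 genes higher and 9 lower, with a median of -0.10 where all genes had 0.29. With K1272 and K1422 left out, 9 of the 17 were called, but so were 5211 of all 18194 genes, or 28.6%, where 2180 were with every array kept.

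Neither genotype comparison called any gene of the 13 lists beside the 9 genes, nor did the difference of the deletion effects. In GMP 13 of 13 B cell markers were lower after deletion, with a median of -0.40 where all genes had -0.20. Of these markers 0 were called, with 3 at an unadjusted p under 0.05. In the same comparison 11945 of all 18194 genes were lower, as were 15 of 17 genes of unrelated tissues, with a median of -0.41. Of the 17 class II pathway genes 2 had an unadjusted p under 0.05 in GMP and 2 in LSK. For GMP against LSK in Dot1l-deleted mice Fcgr3 was the only gene of the lists that was called. The rest of the calls were between the cell types of control mice.

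Among dendritic transcription factors, 4 of 17 were called in control GMP against control LSK, all lower, and the list had a median of -0.39. Over all genes 12% were called in this comparison, and 4.95% were called lower, against which the counts of the lists that follow are to be read. Notch2, a receptor gene needed for a subset of spleen dendritic cells, had -2.15 ± 0.26 (SE), Bcl11a, which acts with Tcf4 in plasmacytoid cells, had -1.81 ± 0.36 (SE), and Irf2 and the corepressor gene Cbfa2t3 had -2.72 and -1.53. Of 18 conventional dendritic markers 2 were higher, the inhibitory receptor gene Sirpa at 1.35 and the actin-bundling gene Fscn1 at 1.25, and 1 was lower, the peptidase gene Dpp4 at -2.27. Of 15 plasmacytoid dendritic markers 2 were higher, Plac8 at 2.12 and Bst2 at 1.25, and 0 lower. Myeloid progenitors are known to express Sirpa and Plac8 too. Of 7 costimulatory genes, among them Cd80, Cd86 and Cd40, 0 were called and 0 had an unadjusted p under 0.05. The conventional dendritic count was 7 of 18 with K1272 and K1422 left out, where 28.6% of all genes were called.

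Of 10 class I genes, which present peptides from inside the cell, 2 were lower in control GMP than in control LSK. Nlrc5, the class I counterpart of Ciita, averaged 4.33 ± 0.45 in control GMP (SD, n = 5) and 7.62 ± 1.09 in control LSK (n = 6), at -3.29 ± 0.61 (SE; limma adjusted p 0.00232), and the heavy chain gene H2-K1 had -0.79 ± 0.25 (SE; limma adjusted p 0.0471). Of 18 interferon response genes 8 were lower and 0 higher, with a median of -0.83 where all genes had 0.29, including Irf9 at -2.80, Oasl2 at -2.53, Iigp1 at -3.64, Gbp2 at -2.34 and Ifit2 at -2.90. Of the lists of other cells, 1 of 8 monocyte markers, the coagulation factor gene F13a1 at 3.18, was higher in control GMP. Of 13 B cell markers, 12 macrophage markers and 8 T and NK cell markers 0 were called in control GMP against control LSK, with 3, 4 and 2 at an unadjusted p under 0.05. The part of other cell types in the class II levels of LSK was not tested.

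The 4 class II genes varied together within groups mainly through 1 array. Over the deviations of 21 arrays from their group means, Pearson's r was 0.60 between H2-Aa and H2-Eb1, 0.63 between H2-Eb1 and Cd74, 0.55 between H2-Ab1 and Cd74 and 0.28 between H2-Aa and H2-Ab1. Without the Dot1l-deleted LSK array K1422 these values were 0.17, 0.04, 0.40 and 0.01. The points share the normalization and the shift of each array, and the values are a description.

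The genes most like the class II mean in this measure were Col27a1, Pgap6, Ppp1r16b, Nccrp1 and Nradd, with r between 0.789 and 0.839 over 21 arrays. Without K1422 their r lay between 0.288 and 0.633, and each was highest on K1422 among the LSK arrays, as in Nccrp1 with 6.06 where the next array had 4.19. Those most like Siglech were Tnfrsf25, Tns2, Fmo4, Tmprss15 and C1qtnf4, with r between 0.886 and 0.899, and between 0.773 and 0.809 without the Dot1l-deleted LSK array K1272. All 5 were highest on K1272 among the LSK arrays, as Siglech was. For both patterns r was lower without the array that was highest.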

How the data were processed

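RNA of sorted bone marrow cells was hybridised to Affymetrix mouse arrays. The authors deposited 1 table of RMA intensity values, per the submitters' processing notes. They were read as linear from the values themselves, and used as log2 without a pseudocount or another normalization. Background correction and probe summary are those of the authors, no scan batch is known here, and precision is limited by how many arrays there are. Of 45101 probe sets 34958 had 1 gene in the platform annotation, 932 several and 9211 none. Probe sets with 1 gene covered 18194 genes, of which each was taken at its brightest. Limma 3.58.1 in R 4.3.3 fitted the 4 group means over all arrays, with Benjamini-Hochberg adjustment over all genes and a threshold of 0.05, and was tested on simulated data. Single genes also had an exact permutation test. The members and gene lists were chosen with earlier results of these data known. Of each list, genes past the threshold are named, at most 5 a comparison by smallest p, and for likeness the 5 highest Pearson r. K numbers in the labels recur in both cell types, but 1 of 9 pairs of arrays with the same number had deviations that correlated over 0.1, so they were not taken as pairs. Alternatives were other scalings, filters, probe sets, variances, weights and fits, and each array left out.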

Additional observations from a re-analysis of the deposited data

Results flagged for a closer look

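Within groups of 4 to 6 arrays, 3 of 36 checks of a gene in a group found 1 array far from the others by Dixon's criterion, which chance alone meets in about 1 of 20. H2-Eb1 was 10.11 on the Dot1l-deleted LSK array K1422, where the next array of that group had 7.85. Siglech was 6.32 on the Dot1l-deleted LSK array K1272, where the next had 5.65. Itgax was 6.80 on K1272, where the next had 4.84. All 3 were the highest array of the Dot1l-deleted LSK group. K1422 was also the highest LSK array for H2-Aa, H2-Ab1 and Cd74, and K1272 for 7921 of 18194 genes.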

How the results depend on the processing

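Each comparison was repeated under 34 to 36 alternatives. For Dot1l deletion in LSK and for the difference of the deletion effects 0 of the 9 genes were called in every one, and for deletion in GMP 1 gene, Irf4, was called with array weights and 0 in the other alternatives. For GMP against LSK in Dot1l-deleted mice the count of 2 became 0 with median centring and with only the compared groups in the fit. It was also 0 with the close GMP arrays K1190 and K1272 averaged, and with the K number as a replicate block. That block kept only arrays whose number recurs in both cell types. It therefore left out K1091 and K1422 of Dot1l-deleted LSK and K1553 of control LSK. Without the _s_at, _x_at and _a_at probe sets the count was 0 as well. H2-Aa, H2-Ab1 and Cd74 have only such probe sets and were not tested there. The count became 1 with the mean over all probe sets, and with all probe sets tested singly. It was also 1 with K1272 and K1422 of Dot1l-deleted LSK left out, a choice made after seeing the data, and 4 with array weights. It ranged from 0 to 2 with each array left out, and was 0 without Dot1l-deleted GMP K1190 or K1272, control GMP K1581, Dot1l-deleted LSK K1091, K1359 or K1422, or control LSK K1601. In control mice the count of 3 became 5 with array weights and with K1272 and K1422 left out, with H2-Ab1 and Tcf4 added, 2 with quantile normalization again, and 3 to 4 with each array left out. H2-Aa was called in 33 of 34 limma alternatives, missing when the arrays' upper quartile was a covariate (adjusted p 0.0866), H2-Eb1 in 34 of 35 and Cd74 in 34 of 34. With that covariate, which went with cell type in controls, 593 of all genes were called there, where 2180 were without it. H2-Eb1 and Cd74 still passed with it, at limma adjusted p of 0.0463 and 0.0213. H2-Aa, H2-Ab1, H2-Eb1 and Cd74 kept their direction between cell types in all alternatives. The number of all genes called moved most with array weights, to 7153 for deletion in GMP, 4235 for the difference, 1362 for GMP against LSK in Dot1l-deleted mice and 6352 in controls, and to 446 for deletion in LSK. These weights, estimated gene by gene, were 8.89 for Dot1l-deleted GMP K1190 and 0.0718 for Dot1l-deleted LSK K1272. The replicate block gave 454 genes in controls and 0 in Dot1l-deleted mice, and it changed no other call of a class II gene. The cause of these changes was not tested.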
